A study of Mus musculus with 2 samples.

Results

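The mouse carries 39 Hox genes, which encode homeodomain transcription factors, in the Hoxa, Hoxb, Hoxc and Hoxd clusters. They were taken as every protein-coding gene of GENCODE M21 named Hoxa, Hoxb, Hoxc or Hoxd with a number, 39 of 21938 protein-coding genes on the 21 chromosomes used. The number in a symbol gives the paralog group, of which there are 13. Each cluster was widened by 20 kb at both ends, which gave 651.8 kb in all. Open chromatin was mapped there by DNase-seq, in which nuclei are cut with DNase I and the cut ends are sequenced. The tissue was whole spleen from males aged 14 days, all of the F1 cross B6CASTF1/J. There was 1 group with 2 biological replicates, and no control or treated group. Material of replicate 1 was pooled from 3 males and that of replicate 2 came from 1 male, and the labels name the same donor entry for both.

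Hox genes set position along the body axis of the embryo. Genes with low numbers are switched on early and toward the head, and genes with high numbers late and toward the tail, in the order in which they lie on the chromosome. In cells where they are off, Polycomb proteins keep the clusters in compact chromatin, and Trithorax and MLL proteins keep them on where they are used. In blood, Hoxa genes and some Hoxb genes are used by stem and progenitor cells and are switched off as cells mature. The spleen of young mice holds maturing lymphocytes, macrophages and red cell precursors in a frame of mesenchyme. A bulk library sums over all of these, so fewer cells with an open site and less open chromatin per cell cannot be told apart.

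Replicate 1 had 48286 peaks in its stricter list and 71274 in its larger one, and replicate 2 had 28837 and 44049. The peak height is the deposited signal, on a scale that the labels do not state, and the read depth is unknown. Heights of replicate 1 ran above those of replicate 2 at most genes named below. A strict peak within 1000 bases of a start site in both replicates lay at 5 of 6 leukocyte markers (51.1% of all protein-coding genes). Pax5 (8.09 in replicate 1, 3.94 in replicate 2) and Cd79b (6.50, 2.61) were among them. The exception, Ptprc, had only 0.671 in the larger list of replicate 1. Such a strict peak in both replicates lay at 4 of 5 markers of red cell precursors, such as Tal1 (5.45, 3.38) and Hbb-bs (6.03, 2.75). The exception, Hba-a1, had only 1.02 in the larger list of replicate 1. Of 6 genes of spleen mesenchyme, Nkx2-5 and Tlx1 among them, 0 had a strict promoter peak in either replicate, and Wt1 (0.495) and Tcf21 (0.428) had one in the larger list of replicate 1. Nkx2-3, a regulator of spleen development kept in another list below, went the other way, with a strict peak in both replicates (1.82, 1.45). Among 4 pancreas genes, Cela1 had a peak in both (3.73, 2.24) and Cpa1 in replicate 1 only (0.730), whereas Pdx1 and Ptf1a had none. Of 3 liver genes, Apob had a peak of 0.462 in replicate 1, and Ahsg and Alb had none. The part of these other cell types in the Hox results was not tested.

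Hox promoters were mostly without a peak. Within 1000 bases of a start site, 3 of the 39 genes (7.69%) had a strict peak in both replicates, whereas 51.1% of all protein-coding genes had one. Without a stretch of weak peaks seen in replicate 2 alone, described below, the count was 2. A strict peak in either replicate was found at 8 Hox genes, against 57% of all genes. In the larger lists 5 Hox genes (12.8%) had a peak in both replicates, against 56.1% of all genes. Hoxc10 and Hoxc5, which share a single peak, are both in this count and in that of either replicate. The deposited false discovery rates, which list bases under 0.05, were counted as well. They are not separate from the peak lists: over the clusters, every strict peak held bases at or under 0.001. Similar counts therefore add no second line of support. In each replicate 31 of 39 Hox genes had no listed base in the promoter window, while 8241 and 9170 of all genes had none in replicates 1 and 2. A base at or under 0.001 was present at 7 Hox genes in replicate 1 (17.9%, all genes 57.3%) and at 4 in replicate 2 (10.3%, all genes 52.0%). Where a Hox gene had a strict promoter peak, its height was low: the median was 1.26 in replicate 1 and 1.27 in replicate 2, against 7.03 and 4.80 over all peaked genes. The replicate 2 median rests on 4 genes, and without the weak stretch it was 2.19 over 2 genes.

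**Figure D1:**
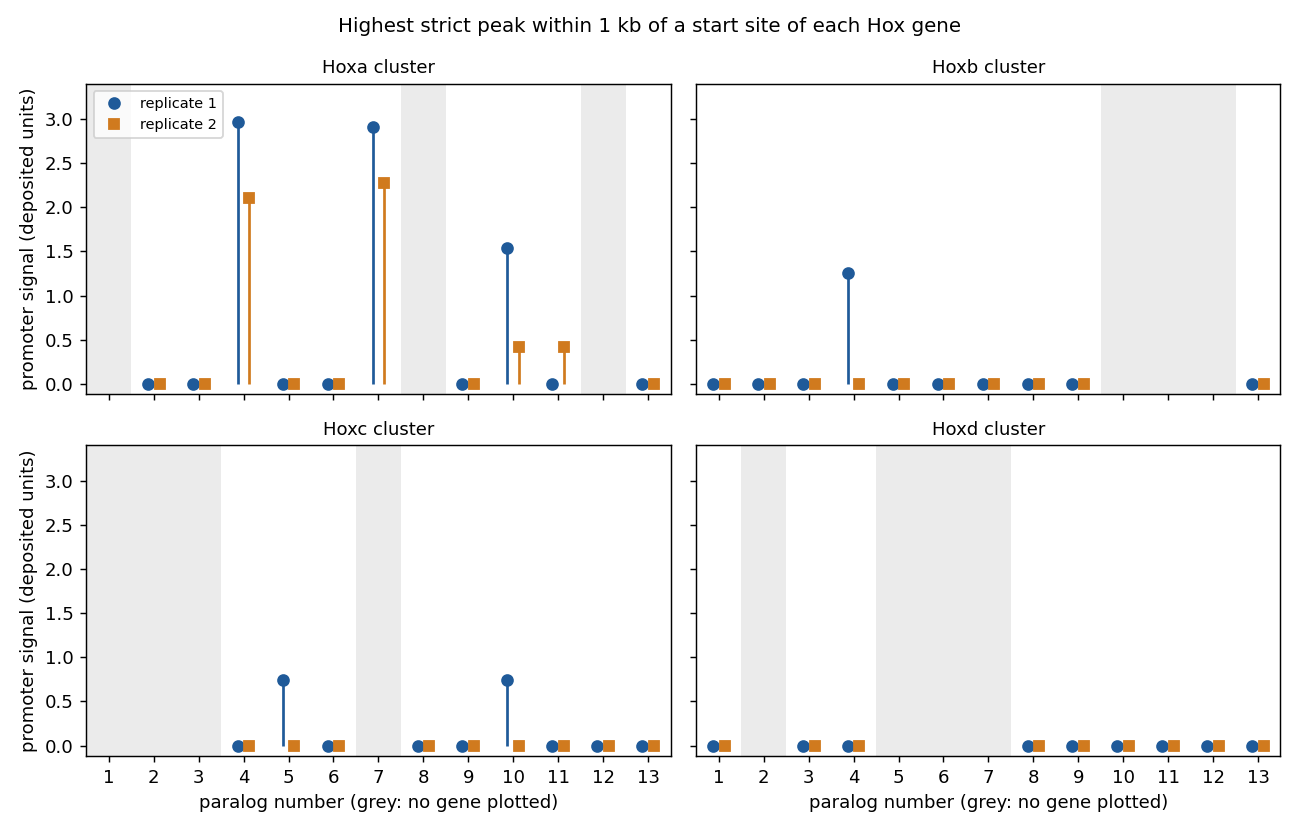
Highest strict peak within 1 kb of a start site for each Hox gene, by cluster and paralog number, in replicate 1 (blue circles) and replicate 2 (orange squares), in the deposited signal units. A point at 0 means no strict peak, grey means that no gene of that number is plotted, and only Hoxa4, Hoxa7 and Hoxa10 are above 0 in both replicates.

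The Hox promoters were not poor in CpG pairs. Promoters rich in CpG pairs are usually open in most tissues. Hox genes had a median of 5.20 CpG pairs per 100 bases around the 5′ end (range 0.999 to 12.6), above the 4.10 of all genes. Of 9032 protein-coding genes at or above that Hox median, 7430 (82.3%) had a strict promoter peak in both replicates. At or above the Hox minimum it was 10931 of 17484 (62.5%). The first of these sets had a median of 7.49 CpG pairs per 100 bases, above that of the Hox genes, and the second had 5.30. Hox genes at or above their own median were not counted apart. Hoxa13, with 12.6 CpG pairs per 100 bases, and Hoxd13, with 11.8, are posterior genes that pattern the limb and the hindgut, and both had no peak in either list. Hoxa4, with 12.5, lay between them and had a strict peak in both replicates (2.96 in replicate 1, 2.11 in replicate 2).

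The Hoxa cluster on chromosome 6 held every Hox promoter that was peaked in both replicates, 3 of 11 genes, and 5 of 11 in either replicate. Hoxa4, a mid-cluster gene, had a peak of 2.96 in replicate 1 and 2.11 in replicate 2 (2.54 ± 0.606, SD, n = 2). Hoxa7, which is used in blood progenitors, had 2.90 and 2.28 (2.59 ± 0.443, SD, n = 2). These were the highest Hox promoter values in both replicates. Hoxa10, another progenitor gene, was peaked at 1.54 in replicate 1 and at 0.423 in replicate 2. Those values came from different places: the replicate 2 peak belongs to a stretch of weak peaks described below, and at the replicate 1 site replicate 2 had a peak of 1.07 in its larger list only. Hoxa11 had 0.415 in replicate 2 only, also within the weak stretch. Hoxa9, the Hoxa gene best known for its part in leukaemia, had no peak in either list, and its lowest false discovery rate was 0.0484 in replicate 1. Hoxa2, Hoxa3, Hoxa5, Hoxa6 and Hoxa13 had no promoter peak in either list.

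Elsewhere, promoter peaks were found in replicate 1 strict lists at 1 Hoxb gene and 2 Hoxc genes, and at 0 of 9 Hoxd genes. Hoxb4, which supports the self-renewal of blood stem cells, had 1.26 in replicate 1 and no peak of either list in replicate 2. Hoxb5 had a peak of 0.773 in the larger list of replicate 2 only. Hoxc10 and Hoxc5 shared a single peak of 0.739 in replicate 1, which replicate 2 had at 0.919 in its larger list. This peak is 96 bases from the Hoxc10 start. Hoxc5 counts through a distant upstream start site of a transcript not annotated as protein-coding.

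Across the widened clusters, strict peaks lay between and inside genes as well as at start sites. Replicate 1 had 14 strict peaks, 6 in Hoxa, 5 in Hoxb, 2 in Hoxc and 1 in Hoxd. Replicate 2 had 28, with 26 in Hoxa, 1 in Hoxb, 1 in Hoxc and 0 in Hoxd, and 23 of these made up the stretch of weak peaks. Outside that stretch it had 5. Per Mb this was 21.5 peaks in replicate 1 (genome 17.7) and 43.0 in replicate 2, or 7.67 without the stretch (genome 10.6, or 10.2 without all such stretches). The peak counts were the same when the clusters were not widened.

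**Figure D2:**
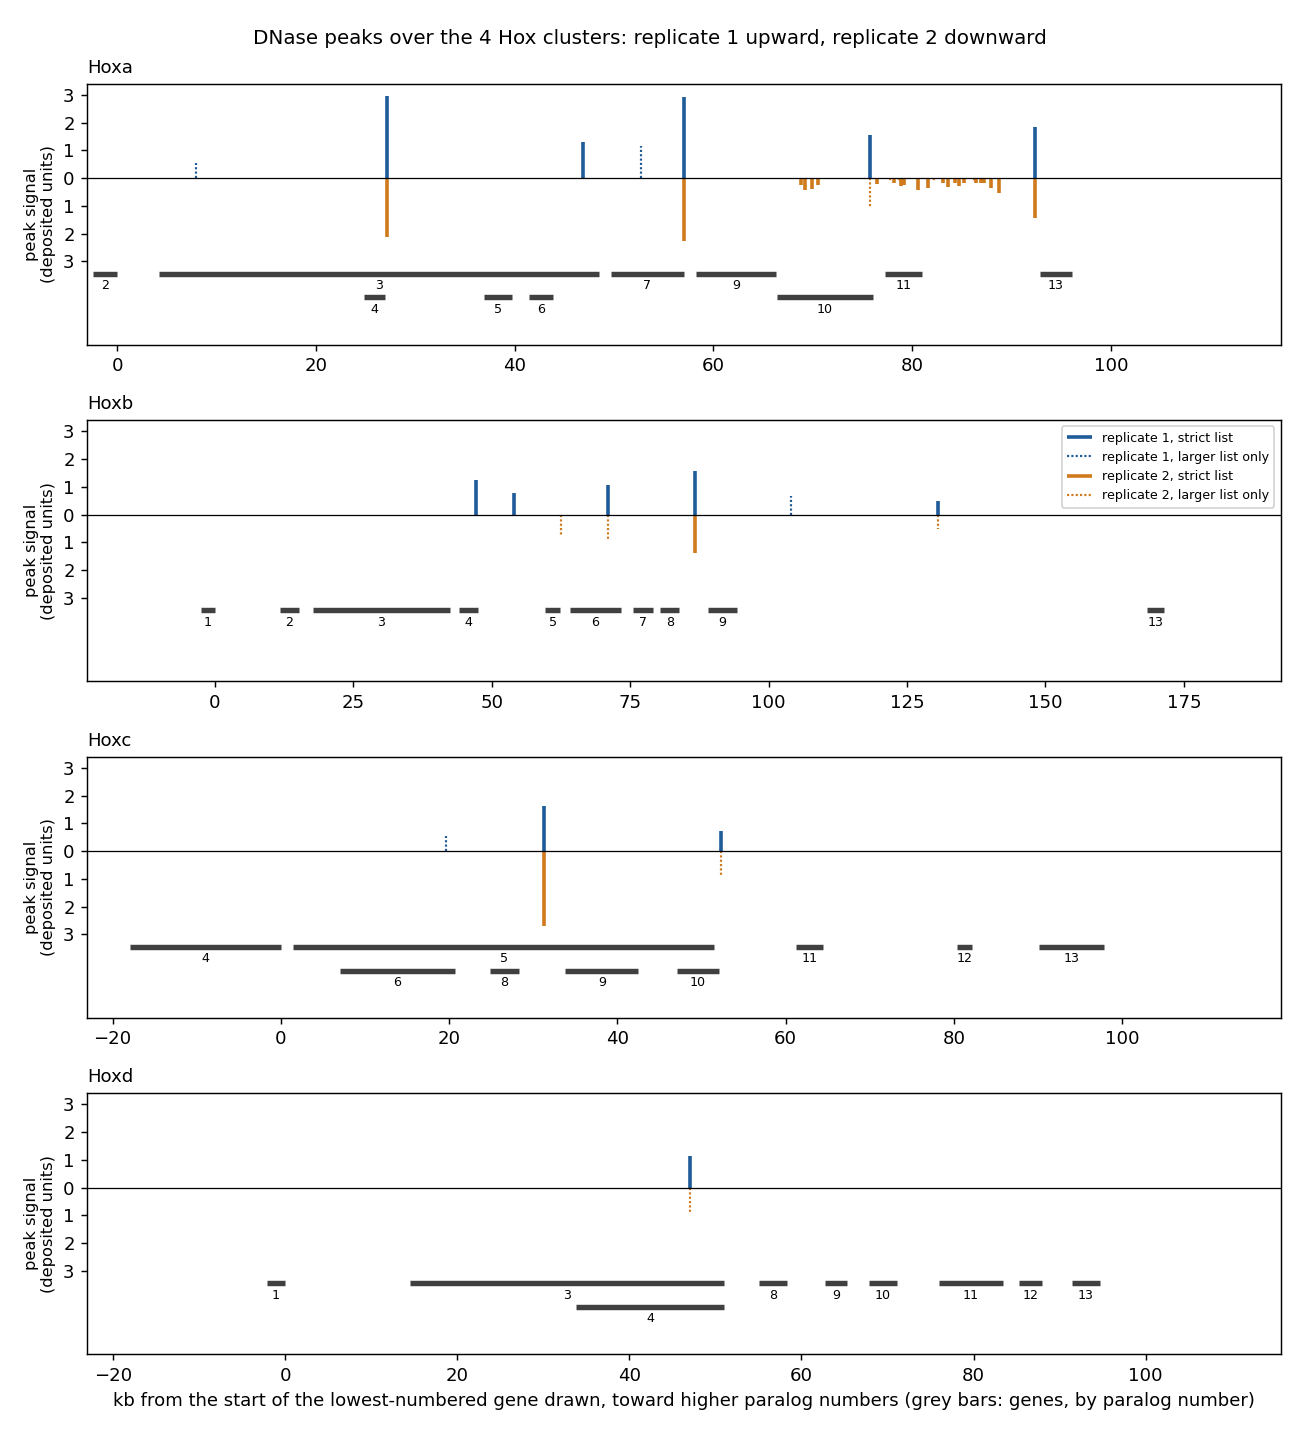
Height of the peaks over the 4 clusters (Hoxa from Hoxa2 on), in deposited signal units, against the distance in kb from the 5′ end of the lowest-numbered gene drawn, with replicate 1 drawn upward and replicate 2 downward. Solid lines are strict peaks, dotted lines are peaks of the larger list only, grey bars are the Hox genes, and solid lines reach both ways at 5 sites.

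At 5 sites a strict peak was called in both replicates, and these made up all 5 strict peaks of replicate 2 outside the weak stretch, which was chosen for its lack of replicate 1 peaks. Genome-wide 89.1% of strict peaks of replicate 2 overlapped one of replicate 1, and 92.6% without all such stretches. In the other direction 5 of 14 strict Hox peaks of replicate 1 were shared (35.7%, genome 53.1%), and 10 of 14 (71.4%, genome 71.1%) overlapped the larger list of replicate 2. The share of all replicate 2 peaks over the clusters, weak stretch included, was 5 of 28 (17.9%). The 5 sites were the Hoxa4 and Hoxa7 peaks, a site just beyond the 3′ end of Hoxa13, a site between Hoxb9 and Hoxb8, and a site between Hoxc9 and Hoxc8. The Hoxa13 site stood at 1.85 in replicate 1 and 1.43 in replicate 2. The Hoxb site, 2845 bases upstream of Hoxb8, stood at 1.58 and 1.37. The Hoxc site, 2907 bases upstream of Hoxc8 and inside the long Hoxc5 transcript, stood at 1.61 and 2.68. Signal was higher in replicate 1 at 4 of the 5, and the Hoxc site was the exception. None was among the strongest: the highest in replicate 1, at Hoxa4, was at the 71.9th percentile of all its strict peaks, and the highest in replicate 2, the Hoxc site, at the 64.4th. The median height of all strict peaks was 1.49 in replicate 1 and 1.79 in replicate 2. In replicate 1 all 5 sites were above that median, whereas in replicate 2 the Hoxa13 and Hoxb sites were below it. The Hoxd cluster had 1 site, at the start of the antisense transcript Hoxd3os1 inside Hoxd3 and Hoxd4, with 1.14 in replicate 1 and 0.919 in the larger list of replicate 2.

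The sequences of these sites show what the footprints cover. A footprint is a short stretch inside open DNA that is cut less than its surroundings, as when a bound protein shields it. Sequences are the + strand of mm10 from the RefSeq GRCm38.p6 assembly, and capitals mark the bases inside a footprint of replicate 1. They are reference letters, and alleles of the F1 cross that differ from the reference were not examined. The shared sites other than Hoxa7 are given whole. Of these, the Hoxa4 site lies inside the long Hoxa3 gene and the Hoxc site inside Hoxc5. The Hoxa13 site lies in an exon of the noncoding gene 9530018H14Rik. Hoxa7 and Hoxa10 are shown by 1 footprint each, because their peaks run into untranslated exons. The Hoxd site and the Hoxb6 site are added for comparison.
Hoxa4 upstream, chr6:52191861-52192060: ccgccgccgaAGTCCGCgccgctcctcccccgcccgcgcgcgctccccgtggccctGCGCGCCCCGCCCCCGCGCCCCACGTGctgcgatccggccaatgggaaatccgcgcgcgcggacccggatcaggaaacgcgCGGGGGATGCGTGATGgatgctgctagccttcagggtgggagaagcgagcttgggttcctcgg
Hoxa7 start, footprint at chr6:52221799-52221824: GAGCCACACTGCCATCTCCTGGAATT
Hoxa10 start, footprint at chr6:52240530-52240558: ATCGGGAGTGCGCCATCTCGTGGCGGCTG
Hoxa13 downstream, chr6:52257061-52257220: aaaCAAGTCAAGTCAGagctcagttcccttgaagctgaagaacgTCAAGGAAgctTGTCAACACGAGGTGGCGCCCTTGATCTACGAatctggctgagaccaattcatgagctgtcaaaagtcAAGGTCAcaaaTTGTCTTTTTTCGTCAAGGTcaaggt
Hoxb9 to Hoxb8 interval, chr11:96278901-96279060: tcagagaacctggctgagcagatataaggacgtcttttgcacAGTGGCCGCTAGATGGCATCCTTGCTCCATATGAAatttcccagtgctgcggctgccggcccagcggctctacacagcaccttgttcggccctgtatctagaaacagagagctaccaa
Hoxb6 intron, chr11:96294638-96294776: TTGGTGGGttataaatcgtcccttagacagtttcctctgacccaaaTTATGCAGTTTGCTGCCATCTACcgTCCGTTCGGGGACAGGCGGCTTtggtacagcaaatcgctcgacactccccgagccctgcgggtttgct
Hoxc9 to Hoxc8 interval, chr15:102987521-102987700: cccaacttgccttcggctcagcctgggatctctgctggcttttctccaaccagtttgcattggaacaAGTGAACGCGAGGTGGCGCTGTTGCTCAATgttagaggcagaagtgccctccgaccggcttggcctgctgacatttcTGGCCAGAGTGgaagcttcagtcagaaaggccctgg
Hoxd3os1 start, chr2:74715841-74716040: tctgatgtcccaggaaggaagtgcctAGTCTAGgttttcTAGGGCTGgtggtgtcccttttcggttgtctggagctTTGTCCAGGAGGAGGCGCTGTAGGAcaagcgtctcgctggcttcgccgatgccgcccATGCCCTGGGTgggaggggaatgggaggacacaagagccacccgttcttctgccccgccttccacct
Several of the longest footprints carry the letters AGATGGC or AGGTGGC on the + strand or their complement. They match part of the core of the CTCF motif. CTCF is a zinc finger protein that anchors chromatin loops and divides Hox clusters into active and silent stretches. The full 12-letter core, searched below, was not matched downstream of Hoxa13, in the Hoxb6 intron or between Hoxc9 and Hoxc8. Which protein made the footprints was not tested. The Hoxa4 sequence holds neither AGATGGC nor AGGTGGC on either strand. It is 75.0% G and C and has 16.0 CpG pairs per 100 bases.

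Footprints numbered 49 in replicate 1 over the clusters, with 28 in Hoxa, 11 in Hoxb, 6 in Hoxc and 4 in Hoxd, and 38 of them lay in strict peaks. Replicate 2 had 46, with 35, 4, 5 and 2, of which 17 lay outside the weak stretch. For footprints the whole span of the stretch was left out, including the replicate 2 footprint at the Hoxa10 site. For peaks only the weak ones were left out, so that site stayed in. Per Mb, replicate 1 had 75.2 (genome 70.4) and replicate 2 had 70.6, or 26.1 outside the stretch (genome 46.1, or 45.6 without all such stretches). Of the footprints of replicate 1, 15 of 49 overlapped one of replicate 2 (30.6%, genome 42.0%), and 14 of 46 in replicate 2 overlapped one of replicate 1 (30.4%, genome 66.6%). Outside the weak stretch this was 13 of 17 (76.5%), and 67.3% in the genome without all such stretches. The stretches were chosen for holding few peaks of the other library, so leaving them out raises these shares by construction. Footprints of 20 bases or more numbered 12 in replicate 1, 9 of them overlapping one of replicate 2, and 5 in replicate 2, all 5 overlapping. Those 5 lay at the Hoxa7 start, downstream of Hoxa13, between Hoxb9 and Hoxb8, in the Hoxb6 intron, and between Hoxc9 and Hoxc8. The longest, between Hoxb9 and Hoxb8, spanned 35 bases in replicate 1 and 36 in replicate 2 and began at the same base. For footprints of 20 bases or more, the overlapping share over the genome was not counted. The genome shares above cover all widths, so 9 of 12 and 5 of 5 cannot be set against them.

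The CTCF motif, searched on both strands as a 12-letter core with at most 1 mismatch, was found in 3 of 14 strict Hox peaks of replicate 1 and 2 of 5 of replicate 2 outside the weak stretch. All strict peaks held it at 21.9% and 22.5%. The matches were CCAGGAGATGGC at Hoxa7, CCACGAGATGGC at Hoxa10 and CCGCTAGATGGC between Hoxb9 and Hoxb8, each with 1 mismatch. In each, 12 of 12 bases lay inside a footprint of replicate 1. Searched alone, the letters AGNTGGC were found in 8 of the 14 peaks and 4 of the 5, against 22.6% and 22.4% of all strict peaks. They lay within 5 bases of a long footprint, or inside it, for 6 of 12 in replicate 1 and 5 of 5 in replicate 2, against 9.00% and 9.62% of all footprints of 20 bases or more. AGNTGGC was picked after the Hox footprints had been read, so its Hox counts describe that choice. The letters ran on the + strand downstream of Hoxa13, between Hoxb9 and Hoxb8 and between Hoxc9 and Hoxc8, and on the − strand at Hoxa7, Hoxa10 and in the Hoxb6 intron. The Hoxd3os1 site has a footprint of 25 bases without them.

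Letters bound by Hox proteins and by other factors were counted in the same peaks. TGATTNAT, the joint site of PBX and HOX proteins, was in 0 of 14 and 0 of 5 Hox peaks and in 0.814% and 0.607% of all strict peaks, which says only that these letters are not in these windows. TGACAG, bound by MEIS proteins, was in 2 of 14 and 1 of 5 (all peaks 13.8%, 11.9%), downstream of Hoxa13 and at the Hoxb4 start. CCAAT, bound by the promoter factor NFY, was in 5 of 14 and 3 of 5 (20.9%, 22.5%). GGAAGT, an ETS core, was in 3 of 14 and 0 of 5 (21.1%, 17.9%), and AGATAA, the site of the red cell factor GATA1, in 0 of 14 and 0 of 5 (7.54%, 4.42%). All were searched on both strands, may overlap each other, and a match is a description of letters only.

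Weaker sites filled in the rest of the map. In Hoxa, the interval between Hoxa6 and Hoxa7 had a strict peak of 1.31 in replicate 1, where the lowest false discovery rate of replicate 2 was 0.0412, and an internal start site of Hoxa7 had 1.14 in the larger list of replicate 1. In Hoxb, the Hoxb6 intron had 1.05 in replicate 1 and 0.927 in the larger list of replicate 2. The interval between Hoxb5 and Hoxb4 had 0.772 in replicate 1 only. The long gap between Hoxb13 and Hoxb9 had 0.495 in replicate 1 and 0.537 in the larger list of replicate 2. At Hoxa3, Hoxc6 and the noncoding gene Gm53 beside Hoxb9, the larger list of replicate 1 had peaks of 0.537, 0.529 and 0.663 without a counterpart in replicate 2. Taking both lists, 19 sites outside the weak stretch were called in all.

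The stretch of weak peaks in replicate 2 ran over chr6:52233466-52253782 (mm10), 20.3 kb from the Hoxa10 gene past Hoxa11 and short of the 3′ end of Hoxa13. It held 23 strict peaks over 6732 bases, with heights from 0.163 to 0.529 and a median of 0.260. Replicate 1 had 1 strict peak in that span, the Hoxa10 site. Bases under a false discovery rate of 0.05 numbered 10455 in replicate 2 and 250 in replicate 1, and footprints 29 and 3. The Hoxa10 and Hoxa11 promoter peaks of replicate 2 come from it, and without it 2 of 39 Hox genes, Hoxa4 and Hoxa7, had a strict promoter peak in both replicates and 7 in either. Such stretches were not particular to Hoxa. They were defined, after the peaks were seen, as at least 8 strict peaks under the 10th percentile of height, at most 10 kb apart, with at most 25% as many strict peaks of the other library. Replicate 2 had 66 of them on 16 chromosomes with 1120 peaks (3.88% of its strict list), and replicate 1 had 3. By number of peaks the Hoxa stretch ranked 14th of the 66, the largest holding 49. What made them was not tested.

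Noncoding genes seldom have a promoter peak in these libraries: 11.8% of 19952 had a strict one in both replicates. Of 48 noncoding genes with a start in the widened clusters 1 did, 9530018H14Rik beside Hoxa13, through the shared downstream site. Counted singly, 4 had a strict peak in replicate 1 and 8 in replicate 2, where 1 was left without the weak stretch. The others of replicate 2 were Hoxa11os and short RNA entries inside it, so 1 locus was counted several times. The share of all noncoding genes with a peak in a single replicate was not counted. Hotair and Hottip, long RNAs known to bring Polycomb and MLL proteins to Hox genes, had no peak in either list. Among the 7 microRNA genes are Mir10a, Mir10b, Mir196a-1, Mir196a-2 and Mir196b, whose products repress Hox messages. Of the 7, 0 had a peak of either list within 1000 bases of the annotated start. The annotated entries are short precursors, so promoters of longer primary transcripts were not examined. The share over all microRNA genes was not counted. Evx2, a homeobox gene at the end of Hoxd, had none.

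Genes that act on or with Hox genes were set beside the 51.1% of all protein-coding genes and the 82.3% of CpG-rich genes with a strict promoter peak in both replicates. Of 9 genes of the PBX, MEIS and PKNOX partners, which bind DNA together with Hox proteins, 6 had such a peak (66.7%), a share between those values. Pknox1 stood at 26.9 in replicate 1 and 13.6 in replicate 2, and Pbx3 at 17.1 and 11.5, whereas Meis2 had only 0.487 in the larger list of replicate 1. Polycomb genes had strict peaks in both replicates at 25 of 26 (96.2%), such as Pcgf1 (20.6, 15.1) and Pcgf3 (21.9, 12.2). The exception was Pcgf2, with 1.24 in replicate 1 and 0.927 in the larger list of replicate 2. Of the Trithorax and MLL group 14 of 15 did (93.3%), among them Wdr5 (18.3, 12.97) and Dot1l (23.6, 14.4), and Kdm6b, a demethylase that removes the Polycomb mark, had no peak in either list. Loop proteins, CTCF and cohesin subunits among them, had peaks at 10 of 10, with Stag1 at 27.2 and 15.9 and Smc3 at 22.9 and 15.6. Of the inducers of Hox genes in the embryo 1 of 9 had a strict peak in both (11.1%), Rara (3.63, 1.96), a retinoic acid receptor. Rarg had 1.58 in replicate 1 and 1.29 in the larger list of replicate 2, and Cdx1 had none.

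Other developmental homeobox genes gave counts like those of the Hox genes. Of 41, 2 had a strict promoter peak in both replicates (4.88%) and 9 in either. They were Lhx3 (1.72, 1.96) and Nkx2-3 (1.82, 1.45), the latter a regulator of spleen development. Dlx2 had none. In the larger lists the count was 5 of 41 (12.2%), beside 5 of 39 Hox genes, of which Hoxc10 and Hoxc5 share a single peak.

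**Figure D3:**
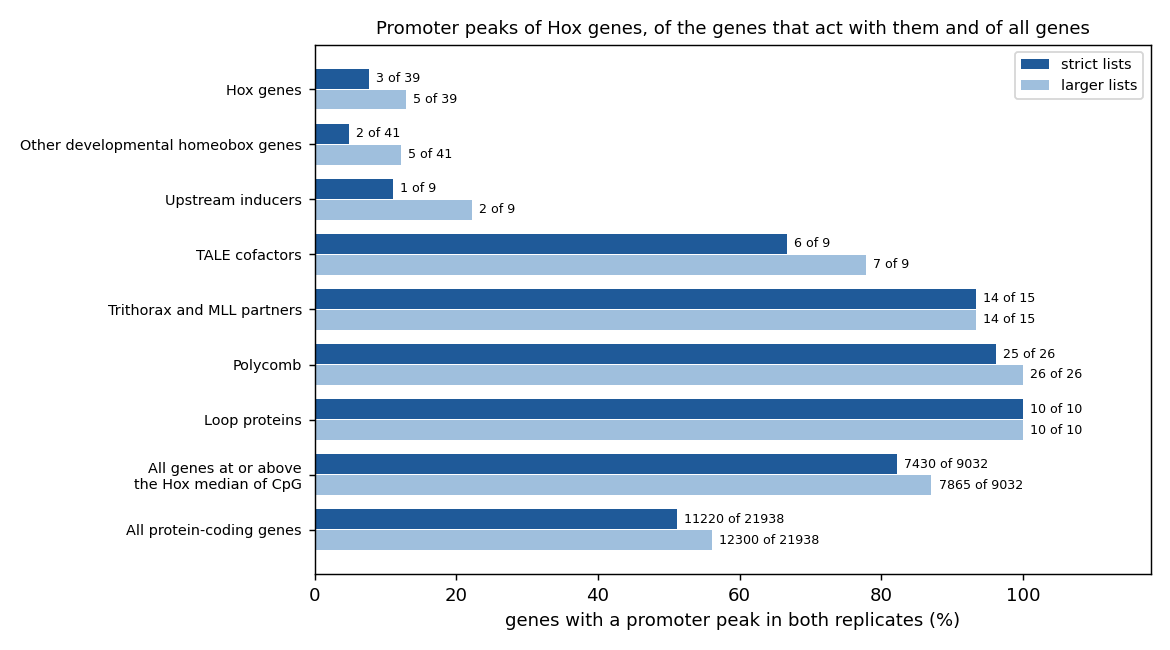
Share of genes with a promoter peak in both replicates, in percent. Bars are for the Hox genes, 6 lists of related genes, genes at or above the Hox median of CpG pairs, and all protein-coding genes. Strict lists are dark and larger lists light, with the counts beside each bar. Hox genes (3 of 39) and other developmental homeobox genes (2 of 41) are low, and Polycomb genes (25 of 26) and loop protein genes (10 of 10) are high.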

How the data were processed

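DNase-seq libraries of 2 replicates were read from the peak lists, false discovery rates and footprints deposited by the authors, on mm10 per the labels. Aligner, peak caller and footprint caller: not given in the sources used here. Each library had 2 peak lists, and the strict list was the one with fewer bases. The deposited peak signal is the authors' own, on a scale not given. The deposited false discovery rate (a p-value type of unit) covers bases under 0.05. The deposited footprint score was constant and was not used.

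A promoter was the 1000 bases either side of any GENCODE M21 start site, and its signal the highest peak touching it, or 0. Peaks were shared if they overlapped by 1 base. Footprints were widened by 5 bases for motif counts. CpG pairs were counted within 500 bases of the 5′ end. RefSeq promoter entries were matched for 22 of the 39 genes, and 24 of 24 entries equalled the genome sequence read here. With 1 group and 2 libraries no test was made, and counts are given beside those of all genes.

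All Hox genes could be named, as could other genes in the widened clusters and, from each list, the 2 with the highest mean signal and the first without a peak. Tlx1, Wt1, Tcf21, Ptf1a, Alb and Pcgf2 were named after their values were seen. The values of 1 Hox gene are not reported here by name. Members and lists were chosen with earlier results of these data known. Overlap, promoter and motif steps were tested on simulated data. Python 3.11.15, numpy 2.4.6 and pandas 2.3.3 were used. Alternatives were the window, start sites, list, overlap, flank, and leaving out a replicate or the weak stretch.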

Additional observations from a re-analysis of the deposited data

How the results depend on the processing

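Of 75 alternative values, 52 stayed within 1.5 times the reported count (or, for shares, within its exact 95% binomial interval) and 23 moved beyond it. Windows of 500 and 2000 bases and start sites of protein-coding transcripts moved neither promoter count that far. Promoter peaks in both replicates rose from 3 to 5 Hox genes in the larger lists, where the added Hoxc10 and Hoxc5 share a single peak. Promoter peaks in either replicate fell from 8 to 3 with the strongest 50% of peaks and to 5 with an equal number of peaks. With 1 replicate left out, both counts ranged from 4 to 7. The mean number of strict peaks per replicate was 16 in Hoxa, 3 in Hoxb, 1.5 in Hoxc and 0.5 in Hoxd. It fell to 4.5 in Hoxa without the weak stretch, became 5, 2.5 and 1 in Hoxb, Hoxc and Hoxd with the larger list, and 1.5 in Hoxb and 0 in Hoxd with an equal number of peaks. Over single replicates it ranged from 6 to 26 in Hoxa, from 1 to 5 in Hoxb, from 1 to 2 in Hoxc and from 0 to 1 in Hoxd. Mean footprints were 31.5 in Hoxa and 17 without the weak stretch. Inside strict peaks they fell from 7.5 to 4.5 in Hoxb and from 5.5 to 3.5 in Hoxc, and over single replicates from 4 to 11 in Hoxb. The shared fraction of replicate 2 peaks rose from 17.9% to 100% without the stretch, by construction, since the stretch was chosen for its lack of replicate 1 peaks, and that of replicate 1 from 35.7% to 71.4% against the larger list. Leaving out the stretch, and leaving out a replicate for the cluster counts, were chosen after seeing the data. No paired analysis was possible because there is 1 group. The read depth is unknown, and with few weak peaks a site missing in 1 replicate is not shown to be closed there.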
